A study of Homo sapiens with 8 samples.

Results

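The 10 genes described here drive and guard the entry of cells into S phase: the D-type cyclins CCND1, CCND2 and CCND3, the E-type cyclins CCNE1 and CCNE2, the cyclin-dependent kinases CDK2, CDK4 and CDK6, the retinoblastoma gene RB1 and the transcription factor gene E2F1. They were taken by symbol from a table of 61906 genes, in which each of the 10 had 1 row. Poly(A) RNA was sequenced from U251, a human glioblastoma cell line labelled as wild type, after 24 h with the vehicle DMSO (4 libraries) or with 100 nM LLY-283 (4 libraries), an inhibitor of the arginine methyltransferase PRMT5. The libraries are labelled as biological replicates of 1 cell line, so that p-values measure the spread between cultures of that line. The comparison addresses whether inhibiting PRMT5 changes the expression of genes of the cell cycle.

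In the textbook account of G1, mitogens induce D-type cyclins, which bind CDK4 or CDK6 and begin the phosphorylation of the retinoblastoma protein. Phosphorylated retinoblastoma protein releases E2F transcription factors, among them E2F1, which then raise the expression of E-type cyclins, of genes for DNA replication and of E2F1 itself. E-type cyclins bind CDK2 and complete the phosphorylation, and inhibitors of the INK4 and CIP/KIP families restrain the kinases. In glioblastoma this pathway is often altered, by loss of CDKN2A, gain of CDK4 or CDK6 or loss of RB1.

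Because E2F1 is known to act on its own promoter, and was the gene of the 10 with the smallest p-value below, the sequence before its start is shown with the matches to E2F motifs in capitals, together with that of CCNE1, an E2F target gene. Both come from RefSeq (GRCh38.p14), are written 5′ to 3′ on the strand of the gene and end with the base before the annotated start. The E2F1 stretch lies at chr20:33686386-33686635 on the minus strand and the CCNE1 stretch at chr19:29811741-29811990 on the plus strand.
E2F1: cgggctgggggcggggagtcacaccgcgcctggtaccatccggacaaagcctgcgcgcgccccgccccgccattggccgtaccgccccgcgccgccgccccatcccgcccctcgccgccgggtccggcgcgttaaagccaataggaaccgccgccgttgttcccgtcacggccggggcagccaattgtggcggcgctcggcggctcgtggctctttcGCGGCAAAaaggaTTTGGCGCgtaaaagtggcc
CCNE1: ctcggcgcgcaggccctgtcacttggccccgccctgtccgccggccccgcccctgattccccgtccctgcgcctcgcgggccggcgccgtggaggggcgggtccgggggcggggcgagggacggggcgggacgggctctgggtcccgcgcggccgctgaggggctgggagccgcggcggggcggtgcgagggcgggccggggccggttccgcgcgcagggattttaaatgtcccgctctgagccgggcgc

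The letters searched were TTTCCCGC, TTTCGCGC, TTTGCCGC and TTTGGCGC, on both strands. E2F1 held 2 matches that do not overlap each other. TTTGCCGC was matched on the opposite strand at positions -33 to -26, where the printed strand reads GCGGCAAA, and TTTGGCGC was matched on the printed strand at positions -20 to -13, counted from the annotated start. At least 1 match was found in 979 of the 35116 windows of 250 bases in the table (2.79%), and 43 windows (0.123%) held 2 or more. Of the 10 genes, 6 had an entry, with 9 windows in all: CCND3 had 3, CDK6 had 2, and CDK4, RB1, CCNE1 and E2F1 had 1 each. The windows of CCND3, CDK4 and RB1 and 1 of those of CDK6 precede internal starts, inside the genes as GENCODE draws them. CCND1, CCND2, CCNE2 and CDK2 had no entry. The 8 windows other than that of E2F1 held none of these letters, which says nothing about binding of E2F proteins there.

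The values are TPM (transcript abundance per library total), which RSEM estimates as the abundance of a gene's transcripts divided by their length and by the total of the library, so that levels can be compared between genes. TPM keeps no depth, and no counting error can be given. Means are given with the SD over the 4 libraries of a group throughout. Between 24042 and 24757 genes had a value above 0 per library, and the correlation of log2 values between replicates was 0.963 to 0.971 in both groups. Between libraries of different groups it was 0.956 to 0.969, a range that overlaps the former. Mitochondrial transcripts took 10.2% to 10.995% of TPM in 7 libraries and 7.19% in LLY-283 replicate 4. Of 9 glioma and neural stem cell markers, VIM, NES, GFAP, FABP7, SOX2, CD44 and TNC were at 84.48 TPM or more in every library, S100B was at 2.34 to 4.94 TPM and OLIG2 at 0.03 TPM or less. NES, SOX2, GFAP and FABP7 lay wholly lower with LLY-283 (GFAP averaged 809.5 TPM with vehicle and 679.9 TPM with LLY-283) and CD44 wholly higher (1576 and 1700 TPM on average). Of all 14478 genes averaging 1 TPM or more, 19.6% lay wholly lower with LLY-283 and 9.63% wholly higher. Among markers of other cell types, the highest values were 0.94 TPM for the immune markers CD14, PTPRC and CD3E and 0.5 TPM for the endothelial markers VWF, CDH5 and PECAM1. Of the epithelial markers, EPCAM and CDH1 reached at most 0.1 and 0.28 TPM while KRT8 was at 307.8 to 371.5 TPM, and of the neuronal markers, RBFOX3 and SNAP25 reached at most 0.09 and 0.8 TPM while SYT1 was at 4.51 to 5.63 TPM. The part of these markers in the results was not tested. PRMT5 itself averaged 100.0 TPM with vehicle and 100.4 TPM with LLY-283.

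Of the 10 genes, 9 passed the filter of a mean of at least 1 TPM and were tested with limma on log2(TPM + 0.1) together with all 14478 genes that passed it, with Benjamini-Hochberg adjustment over all of them. The D-type cyclin genes CCND1 and CCND3 rose, while CCNE2, CDK2 and E2F1 fell, at an adjusted p-value under 0.05. The tested genes CCNE1, CDK4, CDK6 and RB1 did not pass that threshold. Thus 5 of 9 genes passed, where 26.2% of all genes tested did; 2 were increased, where 8.61% of all genes tested were, and 3 were decreased, where 17.6% were. The balance over all genes depends on the scaling: 1247 genes were increased and 2541 decreased in TPM, but 1871 and 1820 after quantile normalization, 1927 and 1866 under median-of-ratios scaling, and 2801 and 1644 once a trend on GC content and length was taken out. For the same 5 genes the 2 groups of libraries were fully separated. LLY-283 lay wholly higher for 2 of them, as for 9.63% of all genes tested, and wholly lower for 3, as for 19.6%, which makes 29.2% in either direction. Without regard to a test, 6 of the 9 had a negative log2 fold change, as did 60.2% of all genes tested, and 3 a positive one, as did 39.8%. The changes were small. Changes beyond 1.5-fold were found in 0 of the 9 genes, both among those with an adjusted and among those with an unadjusted limma p-value under 0.05. Of all genes tested, 3.87% met the adjusted threshold with such a change, 0.394% upward and 3.48% downward. The median log2 fold change of the 9 genes was -0.12, and that of all genes tested was -0.05. In these bulk libraries, fewer cells expressing a gene and less RNA of it per cell cannot be told apart.

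**Figure D1:**
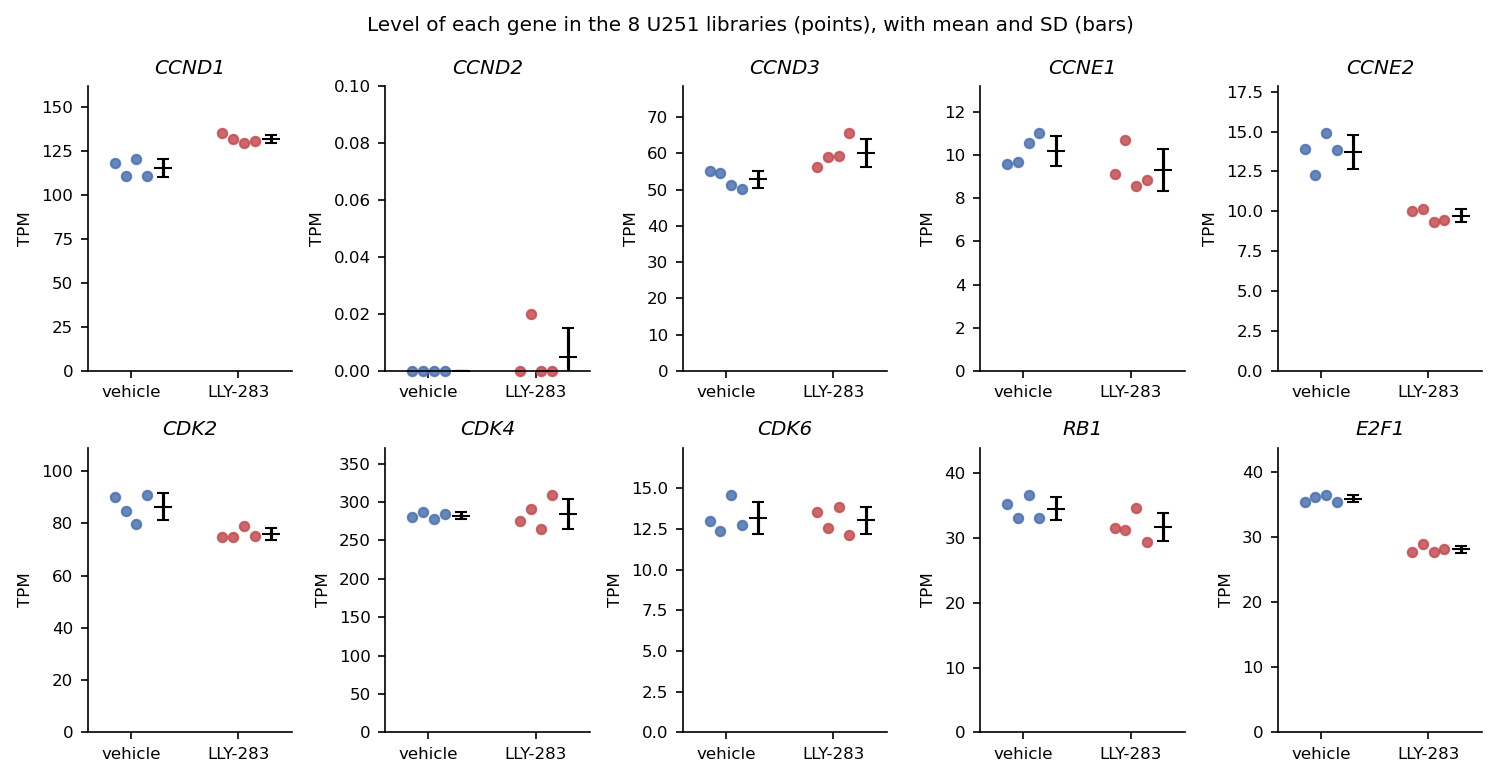
TPM (y axis of each panel, from 0) of the 10 genes in the 4 vehicle and 4 LLY-283 libraries; points are libraries and bars are the mean with the SD. The LLY-283 points lie above all vehicle points for CCND1 and CCND3 and below all of them for CCNE2, CDK2 and E2F1, while CCND2 reaches at most 0.02 TPM.

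With vehicle, CDK4 was the most abundant of the 10 genes, followed by CCND1, CDK2 and CCND3, each separated from the next by ranges that did not meet. E2F1 (35.8 ± 0.550 TPM) and RB1 (34.6 ± 1.72 TPM) came next with overlapping ranges, as did CCNE2 (13.7 ± 1.08 TPM) and CDK6 (13.2 ± 0.977 TPM), and CCNE1 (10.2 ± 0.689 TPM) was the lowest of the 9 genes tested (SD, n = 4 each). With LLY-283, 2 of these neighbours changed places. RB1 (31.7 ± 2.15 TPM) stood above E2F1 (28.1 ± 0.594 TPM), and CDK6 (13.02 ± 0.808 TPM) above CCNE2 (9.73 ± 0.408 TPM), both without overlap, while the ranges of CCNE2 and CCNE1 (9.31 ± 0.952 TPM) now met. The coefficient of variation between replicates lay between 1.47% and 7.90% with vehicle and between 1.74% and 10.2% with LLY-283 over the 9 genes.

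CCND1 encodes cyclin D1, the D-type cyclin most often linked to mitogen signals and to amplification in cancer. The gene (ENSG00000110092) lies on chromosome 11, 69641156 to 69654474 of GRCh38, with 5 exons in its canonical transcript. Its level was 118.19, 111.04, 120.74 and 110.67 TPM in the vehicle libraries and 135.01, 131.77, 129.76 and 130.66 TPM in the LLY-283 libraries. All LLY-283 values were above the highest vehicle value, and they lay closer together than the vehicle values. The mean rose by 14.4%, from 115.2 ± 5.08 to 131.8 ± 2.29 TPM (SD, n = 4 each). In limma this was 0.20 ± 0.0350 (SE) on the log2 scale, with an adjusted p of 0.00370. Of all genes tested, 90.8% had a lower log2 fold change. LTO1, which overlaps CCND1 on the opposite strand, had a log2 fold change of -0.16 (adjusted p = 0.132, limma), and whether the counting used the strand is not stated.

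CCND3 encodes cyclin D3, a D-type cyclin prominent in lymphoid cells and in cells leaving the cycle to differentiate. The gene (ENSG00000112576, chromosome 6, 41934934 to 42050357, minus strand, 5 exons) was at 55.17, 54.66, 51.30 and 50.29 TPM with vehicle and at 56.35, 59.07, 59.20 and 65.51 TPM with LLY-283. The groups did not overlap, but the lowest LLY-283 value was close to the highest vehicle value, and the highest value of all was that of LLY-283 replicate 4, the library low in mitochondrial transcripts. The mean rose by 13.6%, from 52.9 ± 2.42 to 60.03 ± 3.88 TPM (SD, n = 4 each), which limma put at 0.18 ± 0.0515 (SE) on the log2 scale with an adjusted p of 0.0284. This call was sensitive to the processing: it was lost without vehicle replicate 3 (adjusted p = 0.0732), vehicle replicate 4 (0.0791), LLY-283 replicate 2 (0.0538) or LLY-283 replicate 3 (0.0529), and also without the filter on low values (0.0619), with eBayes without trend (0.0535) and with the replicate block (0.0711). Without LLY-283 replicate 4 it was kept, at a log2 fold change of 0.14 (adjusted p = 0.0354, limma), and with the mitochondrial genes left out of the total at 0.17 (adjusted p = 0.0207, limma).

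CCND2, which encodes cyclin D2, the D-type cyclin of neural progenitors and gonads, was listed at 0 TPM in 7 libraries and at 0.02 TPM in LLY-283 replicate 2. The gene (ENSG00000118971, chromosome 12, 4269771 to 4305353) therefore did not pass the filter, and no fold change is given. The D-type cyclin transcripts of these U251 cells thus came from CCND1 and CCND3. Summed over the 3 genes they were 173.36, 165.70, 172.04 and 160.96 TPM with vehicle and 191.36, 190.86, 188.96 and 196.17 TPM with LLY-283. CCND1 contributed 68.5 ± 1.32% of this sum with vehicle and 68.7 ± 1.63% with LLY-283 (SD, n = 4 each), with overlapping ranges. Whether the rises of CCND1 and CCND3 differ was not tested.

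CDK4, one of the kinases activated by D-type cyclins, had the highest level of the 10 genes. The gene (ENSG00000135446, chromosome 12, 57747727 to 57756013, minus strand) was at 280.98, 287.07, 277.40 and 284.07 TPM with vehicle and at 275.27, 290.58, 264.72 and 309.26 TPM with LLY-283. The LLY-283 values surrounded the vehicle values, and the highest was again that of LLY-283 replicate 4. The means were 282.4 ± 4.15 and 285.0 ± 19.4 TPM (SD, n = 4 each), and the log2 fold change was 0.01 with a 95% confidence interval of -0.09 to 0.11 (adjusted p = 0.882, limma). TSPAN31, which overlaps CDK4 on the opposite strand and was named after its values were seen, fell to 10.2 ± 1.37 TPM from 15.2 ± 1.08 TPM (log2 fold change -0.57, adjusted p = 0.00242, limma).

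CDK6, the other kinase partner of D-type cyclins, was far less abundant than CDK4. The gene (ENSG00000105810, chromosome 7, 92604921 to 92836573, minus strand) was at 12.96, 12.36, 14.58 and 12.75 TPM with vehicle and at 13.55, 12.54, 13.84 and 12.14 TPM with LLY-283. The groups overlapped over nearly their whole range, and the log2 fold change of -0.02 had a 95% confidence interval of -0.16 to 0.13 (adjusted p = 0.890, limma). CDK4 made up 95.5 ± 0.376% of the CDK4 and CDK6 transcripts with vehicle and 95.6 ± 0.537% with LLY-283 (SD, n = 4 each). As D-type cyclins rose and these kinases did not pass the test, the ratio of D-type cyclin to CDK4 plus CDK6 transcripts, which does not depend on the scaling of a library, was 0.590, 0.553, 0.589 and 0.542 with vehicle and 0.663, 0.630, 0.678 and 0.610 with LLY-283. The 2 groups of ratios did not overlap; no test was made of it.

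**Figure D2:**
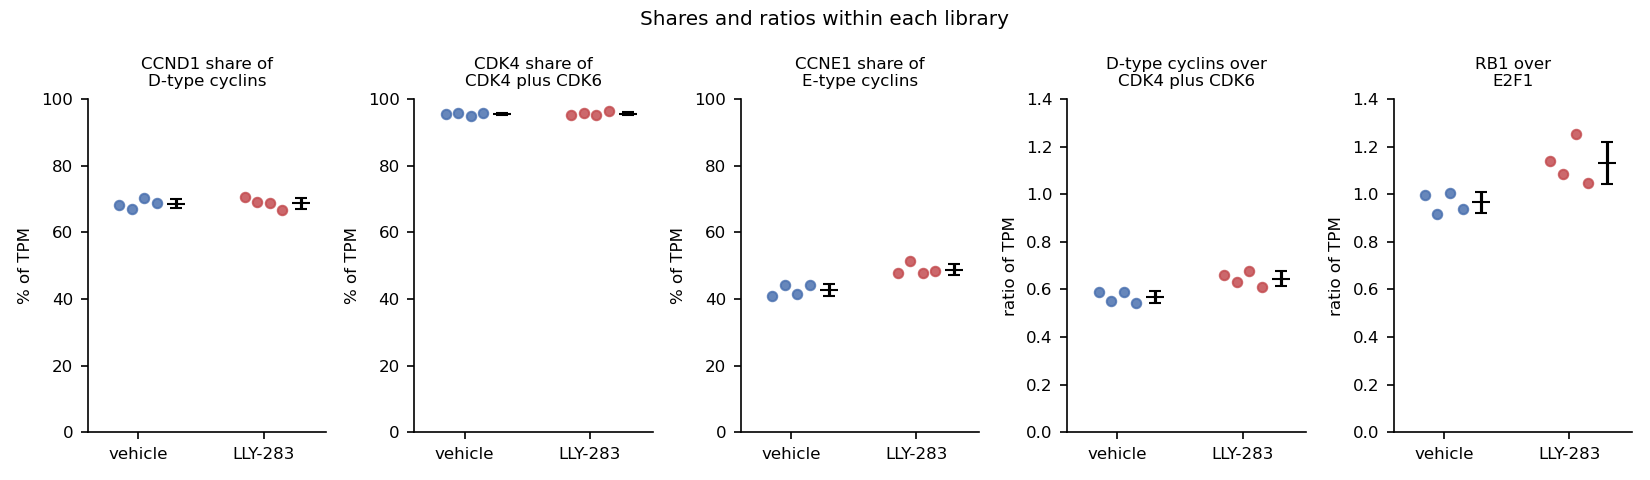
Shares (% of TPM) and ratios of TPM between the genes within each library; points are the 4 vehicle and 4 LLY-283 libraries and bars are the mean with the SD. The share of CCND1 among D-type cyclins and of CDK4 among its pair overlap between groups, whereas the share of CCNE1 among E-type cyclins, the ratio of D-type cyclins to CDK4 plus CDK6 and the ratio of RB1 to E2F1 are higher in every LLY-283 library.

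CCNE2 encodes cyclin E2, which activates CDK2 at the entry into S phase, and had the largest change of the 9 genes. The gene (ENSG00000175305, chromosome 8, 94879770 to 94896678, minus strand, 12 exons) was at 13.89, 12.26, 14.88 and 13.86 TPM with vehicle and at 10.00, 10.16, 9.34 and 9.43 TPM with LLY-283. Every LLY-283 value was below the lowest vehicle value. The mean fell by 29.1%, from 13.7 ± 1.08 to 9.73 ± 0.408 TPM (SD, n = 4 each). In limma this was -0.49 ± 0.0656 (SE) on the log2 scale with an adjusted p of 0.000842, and 7.16% of all genes tested lay lower. Its neighbour INTS8, which overlaps it on the opposite strand at 49.2 ± 5.90 TPM with vehicle, had a log2 fold change of -0.22 that did not pass the test (adjusted p = 0.0806, limma).

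CCNE1, which encodes cyclin E1, the close relative of cyclin E2, did not pass the test. The gene (ENSG00000105173, chromosome 19, 29811991 to 29824312, 12 exons) was at 9.57, 9.68, 10.54 and 11 TPM with vehicle and at 9.13, 10.69, 8.55 and 8.86 TPM with LLY-283. Of the LLY-283 values, 3 were below all vehicle values and that of LLY-283 replicate 2 was above 3 of them. The log2 fold change was -0.13, with a 95% confidence interval of -0.31 to 0.05 (adjusted p = 0.254, limma). It was -0.20 without LLY-283 replicate 2 (adjusted p = 0.0745), and -0.03 both with quantile normalization and after correction for GC content and length. Whether the changes of CCNE1 and CCNE2 differ was not tested. Within each library, CCNE1 made up 40.8%, 44.1%, 41.5% and 44.2% of the E-type cyclin transcripts with vehicle and 47.7%, 51.3%, 47.8% and 48.4% with LLY-283. The share was higher in each LLY-283 library than in any vehicle library; it was not tested. Together the E-type cyclins went from 23.9 ± 1.56 to 19.04 ± 1.31 TPM (SD, n = 4 each), and the ratio of D-type to E-type cyclin transcripts, formed after the values were seen, from 7.05 ± 0.509 to 10.1 ± 0.709.

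CDK2, the kinase partner of the E-type cyclins and later of cyclin A, fell. The gene (ENSG00000123374, chromosome 12, 55966781 to 55972789, 7 exons) was at 90.12, 84.67, 79.79 and 90.84 TPM with vehicle and at 74.81, 74.65, 79.13 and 75.07 TPM with LLY-283. The groups did not overlap, but LLY-283 replicate 3 lay apart from the other 3 LLY-283 libraries and just below the lowest vehicle value. The mean fell by 12.1%, from 86.4 ± 5.17 to 75.9 ± 2.15 TPM (SD, n = 4 each), or by limma -0.18 ± 0.0449 (SE) on the log2 scale, with an adjusted p of 0.0154. The call was lost with median-of-ratios scaling (log2 fold change -0.14, adjusted p = 0.0636). It was also lost after correction for GC content and length without (log2 fold change -0.09, adjusted p = 0.156) or with the replicate block (adjusted p = 0.231). With each library left out it was kept, at adjusted p-values of 0.00620 to 0.0461 (limma).

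RB1 encodes the retinoblastoma protein, which holds E2F factors inactive in G1. The gene (ENSG00000139687, chromosome 13, 48303744 to 48599436, 27 exons) was at 35.31, 33.14, 36.66 and 33.17 TPM with vehicle and at 31.51, 31.29, 34.63 and 29.44 TPM with LLY-283. The groups overlapped through LLY-283 replicate 3, the other 3 LLY-283 values being below all vehicle values. The log2 fold change was -0.12, with a 95% confidence interval of -0.25 to -0.0002, and it did not pass the adjustment (unadjusted p = 0.0497, adjusted p = 0.129, limma). Without LLY-283 replicate 3 it did (log2 fold change -0.17, adjusted p = 0.0470, limma), whereas the log2 fold change was -0.08 with median-of-ratios scaling (adjusted p = 0.275) and -0.07 after correction for GC content and length (adjusted p = 0.224).

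E2F1 had the smallest p-value of the 9 genes. The gene (ENSG00000101412, chromosome 20, 33675477 to 33686385, minus strand, 7 exons), whose promoter with its 2 motif matches is printed above, was at 35.36, 36.15, 36.41 and 35.33 TPM with vehicle and at 27.62, 28.90, 27.66 and 28.08 TPM with LLY-283. The 2 groups were widely separated relative to their spread. The mean fell by 21.6%, from 35.8 ± 0.550 to 28.1 ± 0.594 TPM (SD, n = 4 each). In limma this was -0.35 ± 0.0325 (SE) on the log2 scale with an adjusted p of 0.000139, and 12.5% of all genes tested lay lower. No gene of GENCODE release 44 overlaps it. The ratio of RB1 to E2F1 transcripts was 0.999, 0.917, 1.01 and 0.939 with vehicle and 1.14, 1.08, 1.25 and 1.05 with LLY-283, without overlap and without a test.

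**Figure D3:**
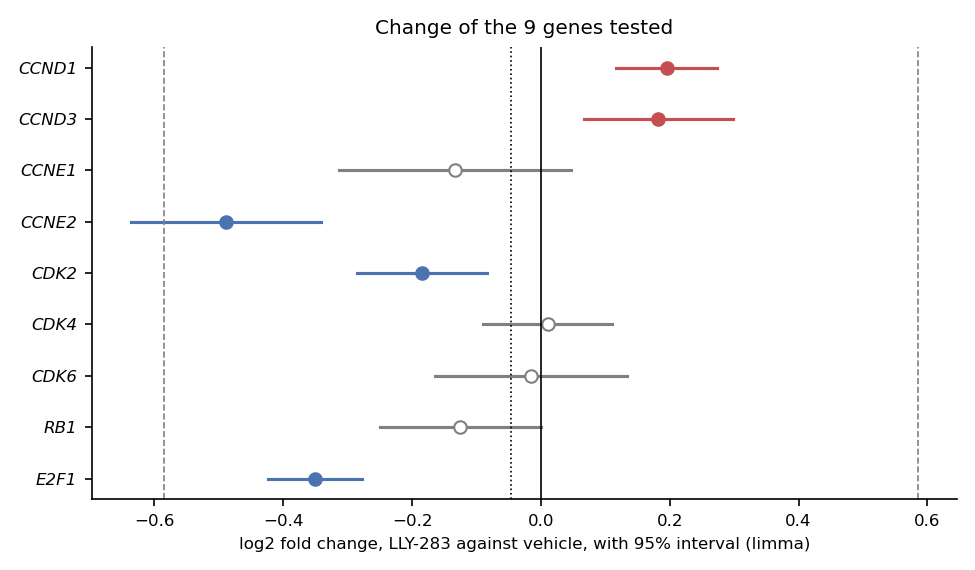
Log2 fold change of LLY-283 against vehicle (x axis) with its 95% confidence interval from limma for the 9 genes tested; filled points passed an adjusted p-value of 0.05 (red increased, blue decreased), the dotted line is the median of all genes tested (-0.05) and the dashed lines are 1.5-fold changes. The points run from -0.49 for CCNE2 to 0.20 for CCND1, and none reaches a dashed line.

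Of the 5 called genes, CCNE2 and E2F1 had the lowest and the highest GC content of the 10 genes, 34.6% and 61.6% in their canonical transcripts of 2674 and 2690 bases. The increased CCND1 and CCND3 had 50.3% and 59.97% in transcripts of 4238 and 2026 bases, and CDK2 had 47.7% in a transcript of 2240 bases. After correction for GC content and length, CCND1, CCND3, CCNE2 and E2F1 kept their calls, at log2 fold changes of 0.26, 0.27, -0.41 and -0.28, whereas CDK2 lost its call, at -0.09 (adjusted p = 0.156, limma).

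The wider pathway was described with 6 lists of genes upstream and downstream of these 10, which were written with earlier results of these data known. Among the CDK inhibitors, 3 of 7 genes passed the filter and all 3 were decreased at an adjusted p-value under 0.05 (limma), where 17.6% of all genes tested were. With quantile normalization 1 of the 3 was decreased, with median-of-ratios scaling 2 and after correction for GC content and length 1. In these settings 1820 of 14478, 1866 of 14478 and 1644 of 14457 genes were decreased, beside 2541 of 14478 as reported. CDKN1A, which encodes p21, was at 13.8 ± 0.530 TPM with vehicle and fell to 8.27 ± 0.558 TPM (SD, n = 4 per group; limma log2 fold change -0.73, adjusted p = 7.95e-05). CDKN2D (p19, an INK4 inhibitor of CDK4 and CDK6) fell with a log2 fold change of -0.32 (adjusted p = 0.0104) that was lost with quantile normalization (-0.22, adjusted p = 0.0735) and after correction for GC content and length without or with the replicate block (adjusted p = 0.0668 and 0.0623). CDKN1B (p27) fell with one of -0.13 (adjusted p = 0.0220) that was lost under 6 of the 20 alternatives, among them median-of-ratios scaling (adjusted p = 0.0920). The INK4 genes CDKN2A, CDKN2B and CDKN2C were listed at 0 TPM in all 8 libraries, and CDKN1C (p57) averaged 0.925 TPM with vehicle and 1.03 TPM with LLY-283.

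Among the RB family and the E2F and DP partners, 5 of 11 genes were decreased and 1 was increased (limma), beside 17.6% and 8.61% of all genes tested, with a median log2 fold change of -0.16. RBL2, which encodes the RB relative p130 of resting cells, was at 26.9 ± 2.07 TPM with vehicle and fell to 21.3 ± 1.63 TPM (SD, n = 4 per group; limma log2 fold change -0.34, adjusted p = 0.00664), and E2F2, an activating E2F like E2F1, fell to 8.20 ± 0.373 TPM from 9.92 ± 0.452 TPM (log2 fold change -0.27, adjusted p = 0.00845), a call lost with quantile normalization (adjusted p = 0.0709). The increased gene was E2F4, which mainly represses its targets, at 65.04 ± 1.29 TPM with vehicle and 72.5 ± 2.96 TPM with LLY-283 (log2 fold change 0.16, adjusted p = 0.0113). E2F3 (log2 fold change -0.16, adjusted p = 0.0439) and RBL1 (log2 fold change -0.20, adjusted p = 0.0477) were close to the threshold and were lost under 15 and 16 of the 20 alternatives, and only 1 gene of the list was decreased with quantile normalization. The count of decreased genes was 2 without vehicle replicate 1, vehicle replicate 3, LLY-283 replicate 1 or LLY-283 replicate 3, and also with median-of-ratios scaling, with the replicate block (alone or with the GC content and length correction) and without the filter on low values. It was 3 without vehicle replicate 2, vehicle replicate 4 or LLY-283 replicate 2, and after the GC content and length correction alone. Over all genes tested, 2541 were decreased as reported and 1820 with quantile normalization. In the settings with a count of 2, 1371 to 2201 were decreased, and in those with 3, 1644 to 2050. E2F4 and not E2F1 was thus the most abundant E2F transcript in both groups, E2F1 being at 35.8 TPM with vehicle and 28.1 TPM with LLY-283.

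Among the MuvB core genes with MYBL2 and FOXM1, which time the expression of cell cycle genes, 3 of 7 were decreased and 1 was increased, where the shares of all genes tested were 17.6% and 8.61%. The decreased count was 2 with quantile normalization, median-of-ratios scaling, eBayes without trend or the GC content and length correction. It was also 2 without vehicle replicate 3, vehicle replicate 4, LLY-283 replicate 1 or LLY-283 replicate 3. Over all genes tested, 1644 to 2391 were decreased in the settings with a count of 2, beside 2541 as reported. With the replicate block added to the GC content and length correction the count was 1, where 1371 of 14457 genes were decreased. MYBL2, a known E2F target, was at 66.3 ± 0.807 TPM with vehicle and fell to 53.7 ± 3.13 TPM (SD, n = 4 per group; limma log2 fold change -0.31, adjusted p = 0.000921, limma), and RBBP4 rose with a log2 fold change of 0.17 (adjusted p = 0.00481). LIN54 fell with one of -0.21 (adjusted p = 0.0188, limma), a call lost with quantile normalization (-0.10, adjusted p = 0.125) and with the replicate block combined with the GC content and length correction (adjusted p = 0.0694). Of the 6 genes for the activation of these kinases, 0 passed the test (limma), where 26.2% of all genes tested did. CDC25A, named after its values were seen, had a log2 fold change of -0.15 (unadjusted p = 0.0166, adjusted p = 0.0588, limma). After correction for GC content and length 2 of the 6 genes were increased, as were 2801 of the 14457 genes tested in that setting. Among 12 genes for the turnover of G1 cyclins, DDB1 and CUL3, subunits of cullin ubiquitin ligases, were increased with log2 fold changes of 0.12 (adjusted p = 0.0297) and 0.11 (adjusted p = 0.0374), FBXO4 was decreased with one of -0.33 (adjusted p = 0.0313), and the other 9 genes did not pass the test (limma). This makes 2 of 12 increased and 1 of 12 decreased, beside 8.61% and 17.6% of all genes tested. With median-of-ratios scaling the counts were 4 and 0, where 1927 and 1866 of 14478 genes were increased and decreased. They were 3 and 0 after correction for GC content and length (2801 and 1644 of 14457 genes). Without the filter on low values they were 0 and 0 (930 and 2041 of 31471 genes). Leaving out LLY-283 replicate 3 gave 0 and 0, and leaving out vehicle replicate 2 or LLY-283 replicate 1 gave 0 and 1. Without vehicle replicate 1, LLY-283 replicate 2 or LLY-283 replicate 4 they were 1 and 0. They were 1 and 1 without vehicle replicate 3, and 2 and 0 without vehicle replicate 4. Over all genes tested, 901 to 1502 were increased and 1898 to 2689 decreased with each library left out.

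**Figure D4:**
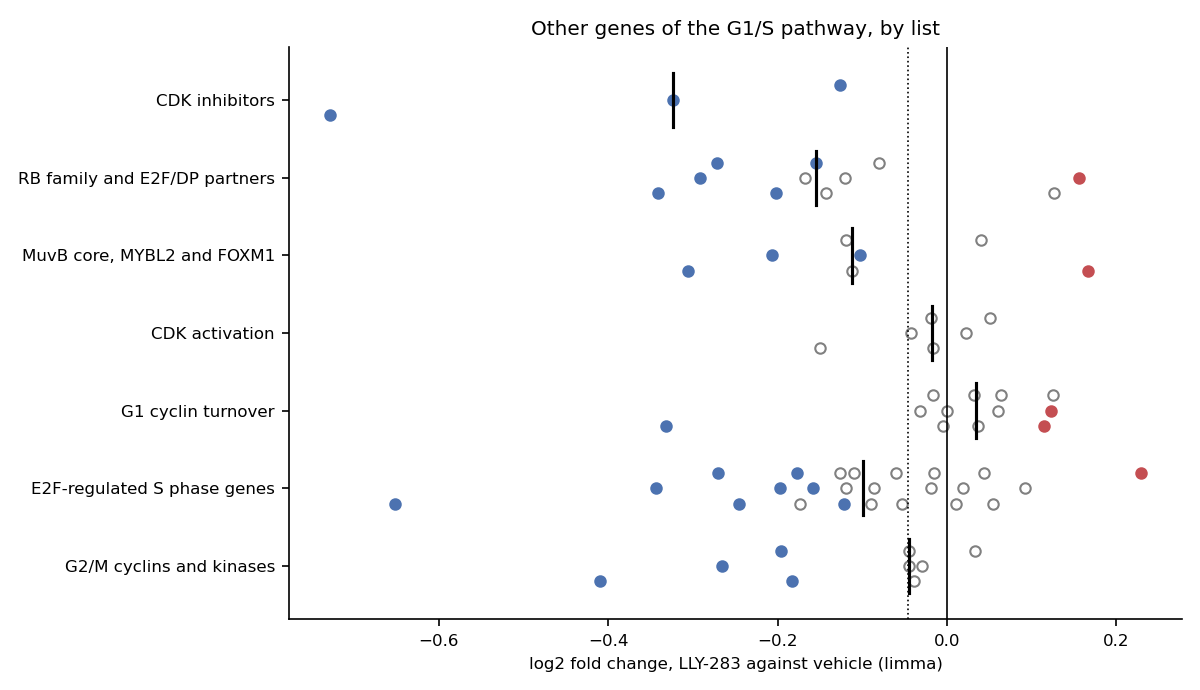
Log2 fold change of LLY-283 against vehicle (x axis) of the tested genes of 7 lists around the G1/S genes; each point is a gene, filled where the adjusted p-value was under 0.05 (red increased, blue decreased), black bars are list medians and the dotted line is the median of all genes tested. The medians run from -0.32 for the CDK inhibitors to 0.03 for the turnover genes, beside -0.05 for all genes tested.

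Among 24 genes that E2F factors are known to drive in S phase, 8 were decreased, 1 was increased and 15 did not pass the test (limma), where 17.6% and 8.61% of all genes tested were decreased and increased. The median log2 fold change was -0.10. RRM2, which supplies deoxynucleotides as part of ribonucleotide reductase, was at 182.4 ± 2.27 TPM with vehicle and fell to 116.1 ± 5.80 TPM (SD, n = 4 per group; limma log2 fold change -0.65, adjusted p = 1.68e-05). CDC45, which unwinds DNA together with the MCM proteins, fell to 33.04 ± 2.18 TPM from 41.9 ± 0.794 TPM (log2 fold change -0.34, adjusted p = 0.00111), whereas MCM3, a subunit of that helicase, rose to 122.8 ± 3.61 TPM from 104.7 ± 3.58 TPM (log2 fold change 0.23, adjusted p = 0.00145). CCNA2, whose product cyclin A succeeds E-type cyclins on CDK2, was at 59.1 ± 0.534 TPM with vehicle and fell to 54.3 ± 0.897 TPM (SD, n = 4 per group; limma log2 fold change -0.12, adjusted p = 0.0110), a call lost with median-of-ratios scaling (adjusted p = 0.0635) and after correction for GC content and length without (log2 fold change -0.06, adjusted p = 0.144) or with the replicate block (adjusted p = 0.252). After correction for GC content and length, 5 of the 24 genes were decreased and 3 were increased, where 1644 and 2801 of 14457 genes were, and the list median was -0.01.

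**Figure D5:**
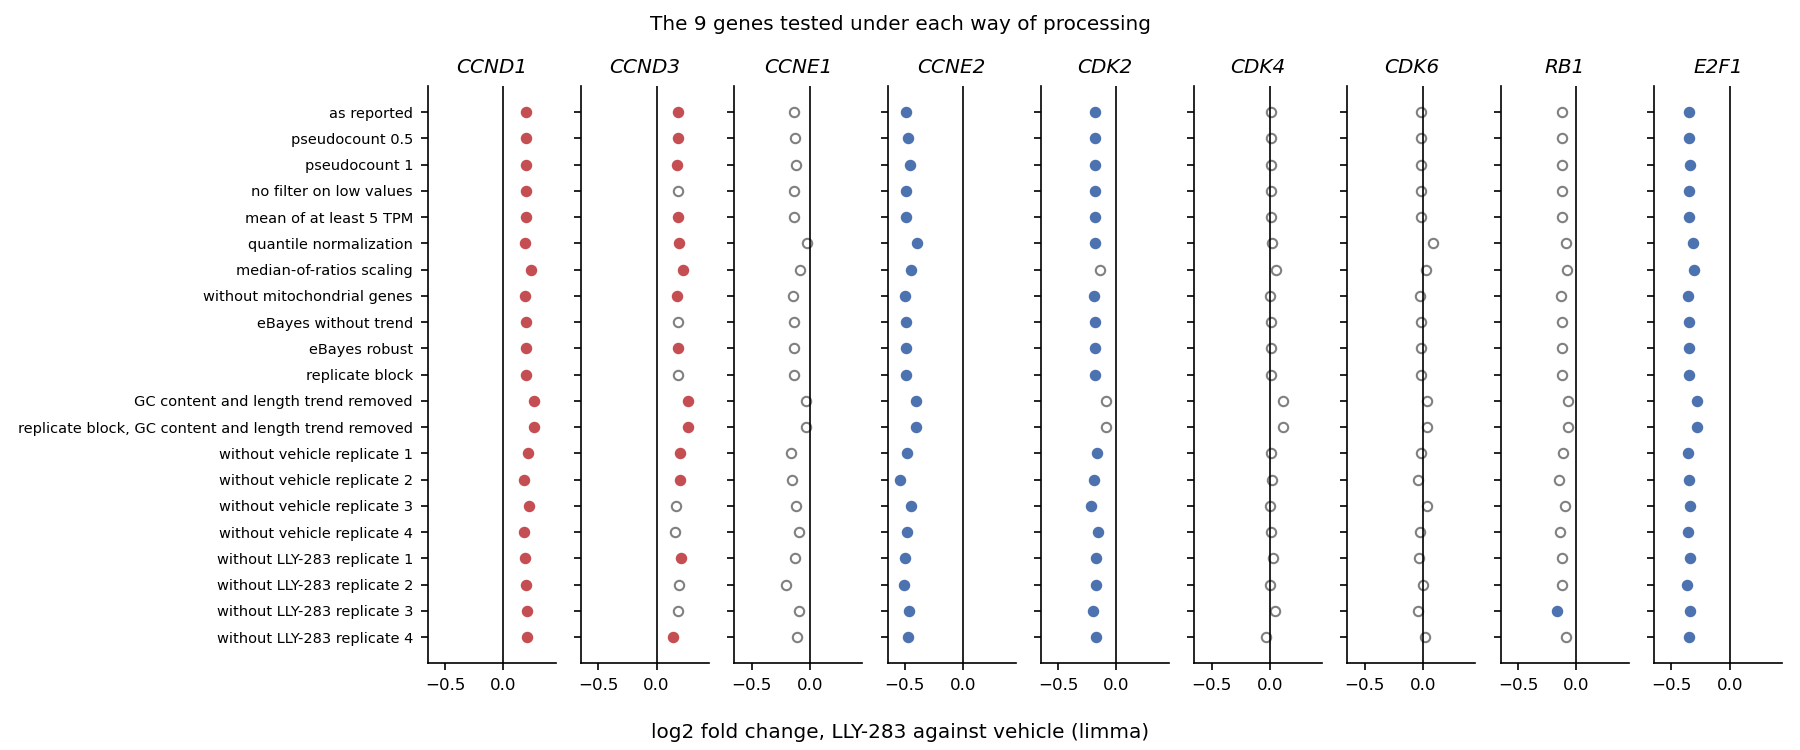
Log2 fold change of the 9 genes tested (x axis, 1 panel per gene) as reported and under each of the 20 alternatives (rows); filled points had an adjusted p-value under 0.05 (red increased, blue decreased). CCND1, CCNE2 and E2F1 are filled in every row, CCND3 and CDK2 in most, RB1 in 1, and CCNE1, CDK4 and CDK6 in none.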

How the data were processed

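The RNAseq comprised 8 libraries of U251 cells, 4 per group, grouped by the sample titles. The authors trimmed adapters with Cutadapt 1.18 (as in the submitters' processing notes), mapped reads to GRCh38 with STAR, estimated gene expression with RSEM on GENCODE release 41 and deposited the TPM of each gene with 2 decimals; the versions of STAR and RSEM differ between the methods and the notes. The total of each library is 1000000 or 1000001 TPM, so depth is not kept, and a few abundant genes can shift all others.

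From the TPM, log2(TPM + 0.1) of the 14478 genes averaging 1 TPM or more was compared with limma 3.58.1 (eBayes with trend, no replicate block) in R 4.3.3, with Benjamini-Hochberg adjustment over all of them. The script was tested on simulated data. Ratios were formed within libraries and were not tested. GENCODE release 44 (GRCh38) gave positions, exons, lengths and GC content, the last 2 for 14457 of the genes tested. Promoters came from RefSeq.

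The 10 genes and the lists were chosen with earlier results of these data known. Named are the 10 genes, the 2 called genes of smallest p-value per list and direction, and genes fixed by name (CDKN1A, CDKN1B, CDKN2A, CDKN2C, RBL1, RBL2, E2F3, E2F4, CCNA2, PRMT5), list genes under the filter or at 0, and the genes overlapping the 10 that are mentioned with them; CDC25A, CCNB1, CCNB2 and TSPAN31 were named after their values were seen. Results were recomputed with a pseudocount of 0.5 or 1, without a filter or with one of 5 TPM, quantile normalization, median-of-ratios scaling, mitochondrial genes left out, eBayes without trend or robust, a replicate block, a correction for GC content and length (a spline fit to each, 4 degrees of freedom) alone or with the block, and each library left out. 1 list of cell type markers is not reported here.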

Additional observations from a re-analysis of the deposited data

Results flagged for a closer look

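In 80 groups of 4 libraries examined, 3 values lay apart from the other 3 of their group by Dixon's criterion, which chance flags in about 1 of 20 groups. CDK2 in LLY-283 replicate 3 was at 79.13 TPM, above the other LLY-283 libraries (74.65 to 75.07 TPM). CCNA2 in the same library was at 55.65 TPM, above the other LLY-283 libraries (53.73 to 54.01 TPM). MCM3 in vehicle replicate 4 was at 99.40 TPM, below the other vehicle libraries (105.91 to 106.84 TPM). Without these libraries the log2 fold changes kept their direction and their calls.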

How the results depend on the processing

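The calls of CCND1, CCNE2 and E2F1 held under all 20 alternatives, with log2 fold changes of 0.18 to 0.26, -0.54 to -0.40 and -0.36 to -0.28. The count of increased genes among the 9 went from 2 to 1, through CCND3, without the filter on low values (1), with eBayes without trend (1) and with the replicate block (1), and lay between 1 and 2 with each library left out; the decreased genes numbered 2 to 4 over all alternatives. Labels give both groups the same replicate numbers and do not say whether same-numbered libraries were handled together. Deviations of same-numbered libraries correlated at -0.041, 0.032, -0.002 and -0.085, and those of differently numbered libraries at -0.213 to 0.201. Same-numbered libraries thus showed no shared deviation, but with 4 libraries per group this cannot tell whether they were paired. With the replicate block CCND3 had an adjusted p-value of 0.0711 and CDK2 one of 0.0434. CDK6, not called in any fit, changed sign with quantile normalization (0.0827), median-of-ratios scaling (0.0295) and correction for GC content and length, without or with the replicate block (0.0355 in both), and ranged from -0.0450 to 0.0347 with each library left out. CDK4 ranged from -0.0294 to 0.0453 with each library left out, negative without LLY-283 replicate 4. PRMT5, likewise not called, was at -0.0044 with quantile normalization, at -0.0034 without mitochondrial genes, and at -0.0295 to 0.0352 with each library left out. With each library left out, the difference between LLY-283 and vehicle ranged from -0.426 to 0.890 percentage points for the share of CCND1 among D-type cyclins, from -0.142 to 0.255 for that of CDK4 among CDK4 plus CDK6, and from -5.38 to 8.90 TPM for the sum of CDK4 and CDK6. The cause of these changes was not tested. Over all genes tested the median lay between -0.06 and 0.03. DDB1, CUL3 and FBXO4 lost their calls under 6, 12 and 11 of the 20 alternatives.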

Other observations

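Genes that act after the G1/S transition were compared as a seventh list, of 9 cyclins and kinases of G2 and mitosis. In limma, 4 were decreased, where 17.6% of all genes tested were, 5 did not pass the test and the median log2 fold change was -0.05, equal after rounding to that of all genes tested. Without regard to a test, 8 of the 9 lay lower and 1 higher, where 60.2% and 39.8% of all genes tested did. With the replicate block combined with the GC content and length correction, 2 of the 9 were decreased, where 1371 of 14457 genes were. After that correction 5 of the 9 lay higher and 4 lower, with a median of 0.04 beside 0.03 for all genes. CDC25C, a phosphatase that activates CDK1, was at 20.5 ± 1.08 TPM with vehicle and fell to 15.4 ± 0.545 TPM (SD, n = 4 per group; limma log2 fold change -0.41, adjusted p = 0.000536), and CDC25B, a related phosphatase, had a log2 fold change of -0.27 (adjusted p = 0.000807). Both kept their calls under all 20 alternatives. The mitotic cyclins CCNB1 and CCNB2, named after their values were seen, had log2 fold changes of -0.04 and -0.05 that did not pass the test (adjusted p = 0.329 and 0.371).

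Over the 8 libraries, the genes whose log2 values were most like those of CCND1 were YME1L1, GPD2 and VPS41 (Pearson's r of 0.992, 0.990 and 0.985), and those most like E2F1 were TMEM161B-DT, HGH1 and TINAGL1 (0.997, 0.996 and 0.996). An r above 0.95 was reached with CCND1 by 57 other genes and with E2F1 by 423. The libraries form 2 groups, so these values are a description in which a gene that separates the groups as sharply ranks high.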
